A study of Arabidopsis thaliana with 4 samples.

Results

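The genes described here are AGO7, AGO8 (AT5G21030), SE, DME and QQS, chosen with earlier results of these data known. They were picked by name for their parts in small RNA pathways, in DNA demethylation or as a target of DNA methylation. They are 5 of the 13356 genes that had a probe set of their own on the array, and 7 probe sets report them, since DME has 3. RNA came from whole plants of Arabidopsis thaliana at the age of 5 weeks, raised hydroponically in long days. The groups were wild type of the line labelled La-er, with 2 arrays, and ago4-1, a mutant of the Argonaute gene AGO4, also with 2 arrays. The labels name no other allele or treatment in either group, and the titles call the arrays of a group biological replicates. The labels do not say whether an array held 1 plant or a pool.

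Argonaute proteins hold a small RNA and use it to find a matching transcript or, in the clade of AGO4, a stretch of chromatin where DNA is then methylated. AGO7 binds miR390 and cuts the TAS3 transcripts, which are made into trans-acting small interfering RNAs against the auxin response factor genes ARF2, ARF3 and ARF4, a step in the timing of the juvenile phase. AGO8 is a member of the AGO4 clade that is often regarded as a pseudogene. SE (SERRATE) is a zinc finger protein that works with the Dicer enzyme DCL1 in cutting microRNA precursors and also takes part in splicing. DME (DEMETER) is a DNA glycosylase that removes methylated cytosine, best known from the central cell of the ovule and the vegetative cell of pollen. QQS is an orphan gene of Arabidopsis thaliana that affects leaf starch, and its transcript level is known to differ among natural lines with the methylation of the repeats beside it.

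The question behind the comparison is how transcript levels in ago4-1 plants compare with those of wild type, which the submitters tie to plant development. AGO7 was 2.07-fold higher in ago4-1, a fold of signal + 16, and it passed the test at an adjusted p under 0.05, as 4.06% of all tested probe sets did. The test held 4 of the 7 probe sets, those above a filter on low signals. In a limma fit over all probe sets 0 of the 7 passed (adjusted p = 0.135 for AGO7), where 0.615% of all did. AGO7 and AGO8 lay under 0.05 there before adjustment. The share of all probe sets under 0.05 before adjustment was not counted in that fit, so these have no like share beside them. In the filtered fit it was 20.4% of all tested probe sets. AGO8 was also higher on both ago4-1 arrays, at signals near the low end of the scale. SE was at about the same signal on all arrays, the 3 probe sets of DME gave 3 different pictures, and QQS stood out on a lone ago4-1 array. All 7 probe sets have plain names of the kind that Affymetrix gives to probes designed for 1 transcript.

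The arrays had median signals from 151 to 165.1. The leaf genes RCA, the activase of Rubisco, and LHCB4.1, an antenna protein, gave signals from 28688 to 31767 on every array. Of the 5 root markers 3 had a probe set of their own, and their summed signal was 395.5 and 219.1 in wild type against 409.7 and 180.8 in ago4-1. PYK10 made up most of that sum, while EXPA18 was lower on both ago4-1 arrays, at 49.5 and 6.13 against 98.1 and 76.9 for wild type (limma adjusted p = 0.186). Both ago4-1 arrays lay below both wild-type arrays for 29.2% of all tested probe sets. All 4 measured markers of late pollen (of 7 on the list) were higher in ago4-1, with a summed signal of 28.2 and 29.1 in wild type against 1160 and 1106 in ago4-1. The pollen markers were taken from earlier results of these same data, so their direction was known beforehand and supports nothing on its own. Over all tested probe sets 2.14% passed as higher in ago4-1. The calls of 2 of these markers, AT5G07430 and AT3G01240, were lost without ago4-1 replicate 1 (limma adjusted p = 0.0595 and 0.062). Of the 3 measured anther genes, A9 of the tapetum stood at 1044 and 1196 in wild type against 2250.4 and 1690.3 in ago4-1 (log2 difference 0.79, limma adjusted p = 0.0402), a call lost with no low-signal filter (0.108), with no variance trend (0.164), without wild type replicate 1 (0.0918) and without ago4-1 replicate 1 (0.115). The other anther genes overlapped between the genotypes, AMS with a log2 difference of -0.36 and SPL with 0.11. The sperm cell histone gene MGH3, by contrast, stood at 11.9 and 39.0 in wild type against 23.2 and 3.58 in ago4-1. None of these markers was at 0, and the floral organ and seed lists had 0 measured members. The part of this difference in pollen transcripts in the results below was not tested. Fewer cells of a type and less RNA per cell cannot be told apart in whole-plant RNA. AGO4 had 0 probe sets paired with it alone, so the mutated gene is not analysed here.

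**Figure D1:**
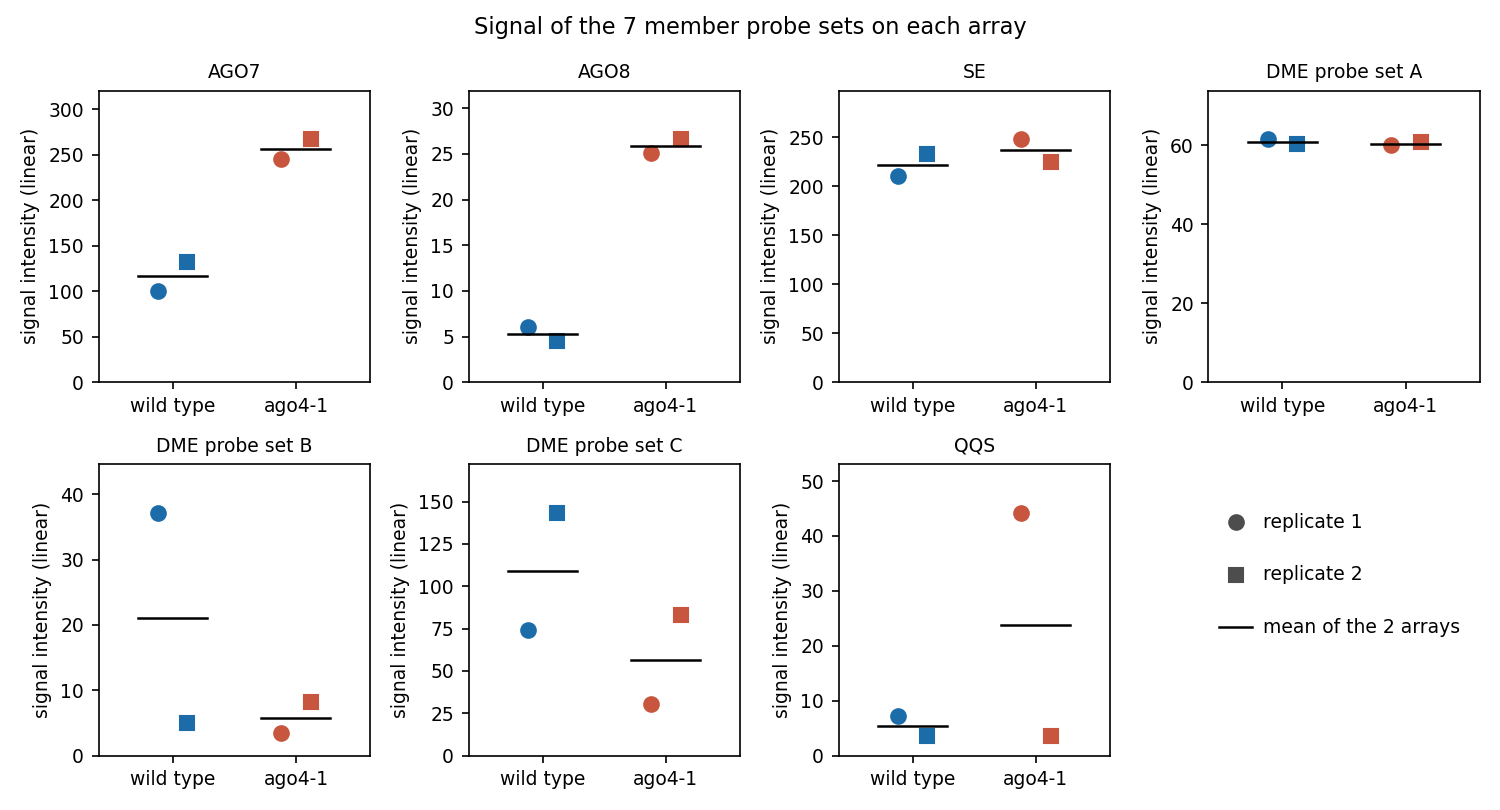
Signal intensity on a linear axis from 0 for the 7 probe sets of AGO7, AGO8, SE, DME and QQS, with a circle for replicate 1, a square for replicate 2 and a line at the mean of the 2 arrays of a genotype. AGO7 and AGO8 are higher on both ago4-1 arrays, SE and the 3 DME probe sets overlap between genotypes, and QQS is high on ago4-1 replicate 1 only.

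The AGO7 probe set gave signals of 100.4 and 132 on the wild-type arrays and of 245.4 and 267.1 on the ago4-1 arrays. Both ago4-1 arrays lay above both wild-type arrays, and the ratio between any ago4-1 and any wild-type array ran from 1.86 to 2.66. The means were 116 ± 22.3 and 256 ± 15.3 (SD, n = 2 each). On the log2(signal + 16) scale AGO7 rose by 1.05 (SE 0.23, 95% interval 0.54 to 1.56, limma adjusted p = 0.0393 over all 15922 probe sets tested). Across those probe sets 4.06% passed, 2.14% being higher in ago4-1 and 1.92% lower, and 2.32% had a larger increase than AGO7. Both ago4-1 arrays lay above both wild-type arrays for 23.2% of the tested probe sets.

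The call of AGO7 stood close to the threshold. With no low-signal filter its limma adjusted p was 0.135, and with no variance trend it was 0.0999. It was 0.145 without wild type replicate 1, 0.0988 without ago4-1 replicate 1 and 0.0827 without ago4-1 replicate 2, and it was 0.0129 without wild type replicate 2. The size moved less, from 0.88 to 1.22 on the log2 scale when any 1 array was dropped.

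The profile of AGO7 over the 4 arrays was set against those of 8726 other named probe sets, each centred on its own mean, by Euclidean distance. The closest was AT3G42725, at a distance of 0.132 log2 units. It gave 46.1 and 64 in wild type against 114 and 121 in ago4-1 (log2 difference 0.92, limma adjusted p = 0.139). Next came AT1G61240, at a distance of 0.148, with 79.6 and 94.3 in wild type against 170.8 and 203.9 in ago4-1 (log2 difference 0.98, limma adjusted p = 0.0655). The third was AGL42, a MADS-box gene that delays the ageing and shedding of floral organs when overexpressed, at a distance of 0.153. Its signals were 179 and 213 in wild type against 420 and 402 in ago4-1. AGL42 rose by 1.01 (limma adjusted p = 0.0237), a call lost with no low-signal filter (0.0879). All 3 share with AGO7 a lower value on wild type replicate 1 than on replicate 2 and a clear step between the genotypes. This likeness follows from their being picked for the closest profile. The order rests on 4 arrays, which all these genes share.

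**Figure D2:**
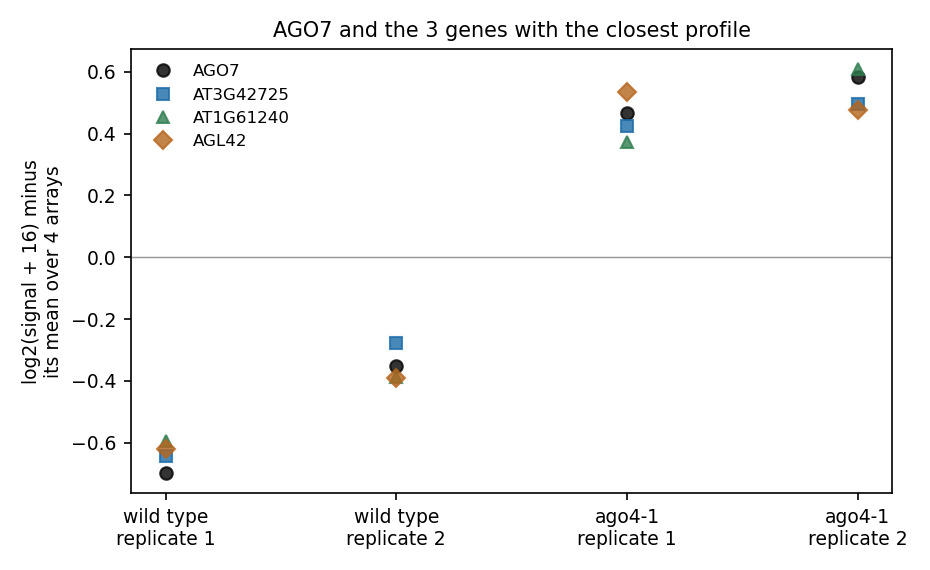
Values of log2(signal + 16), each gene centred on its own mean over the 4 arrays, for AGO7 (black circles), AT3G42725, AT1G61240 and AGL42. The 4 genes lie below 0 on both wild-type arrays and above 0 on both ago4-1 arrays, with distances to AGO7 from 0.132 to 0.153 log2 units.

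The AGO8 probe set stood at 5.99 and 4.52 in wild type against 25.1 and 26.6 in ago4-1. The replicates of each genotype lay close together, and both ago4-1 arrays were above both wild-type arrays, an order found in 21.7% of all probe sets. The means were 5.25 ± 1.04 and 25.9 ± 1.07 (SD, n = 2 each). The probe set fell below the low-signal filter and was therefore tested only in the fit over all 22746 probe sets, in which 0.615% passed. There its log2 difference was 0.98 (SE 0.31, 95% interval 0.22 to 1.74), with a p of 0.0199 that did not hold after adjustment (limma adjusted p = 0.219). The log2 difference depends on the constant added to such low signals: it was 2.11 with a pseudocount of 1 and 0.38 with 64, at adjusted p of 0.262 and 0.23.

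Low signals of this pattern were common. Of 1924 probe sets under 10 on both wild-type arrays, 167 (8.68%) were over 20 on both ago4-1 arrays, as AGO8 was. In the opposite direction 117 of 1759 (6.65%) were over 20 on both wild-type arrays and under 10 on both of ago4-1. The file holds no detection calls, so it is not known whether AGO8 was above background on any array. The other 8 Argonaute genes of the list, AGO9 among them, had no probe set of their own in the annotation used here. AGO9, a member of the AGO4 clade that acts in the ovule, lies near AGO8 in the annotated gene order, with 14 genes between them.

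SE gave 209.9 and 232.7 in wild type against 247.9 and 225 in ago4-1. The genotypes overlapped, and the highest signal was 1.18 times the lowest. The means were 221 ± 16.1 and 236 ± 16.2 (SD, n = 2 each), with a log2 difference of 0.09 (SE 0.19, 95% interval -0.35 to 0.53, limma adjusted p = 0.833). The interval spans 0 and ends below the 1.05 of AGO7, though the difference between the genes was not tested. Of the tested probe sets 20.1% had a smaller difference in size and 11.9% a smaller ratio of highest to lowest signal.

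SE is also a close neighbour of AGO4, with 6 annotated genes between them. Of the 20 named probe sets nearest to SE that were tested, 10 on each side and from AT2G26730 to AT2G27330, 1 passed the test and their median log2 difference was -0.02. That gene was AT2G27180, at 46.6 and 10.1 in wild type against 158.5 and 130.5 in ago4-1. Its log2 difference was 1.98 (limma adjusted p = 0.0487), a call lost with no low-signal filter (0.142). Around AGO7, AGO8 and DME 0 of the 20 nearest passed in the same limma test, against 4.06% of all tested. Without adjustment 4, 2 and 4 of them lay under 0.05, where 20.4% of all tested probe sets lay.

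Other genes of microRNA production were measured beside SE. DDL (DAWDLE), which binds DCL1 and steadies microRNA precursors, gave 344.6 and 322.7 in wild type against 272.6 and 265.3 in ago4-1. TGH (TOUGH), an RNA-binding partner of the DCL1 complex, gave 141.7 and 153 in wild type against 55.9 and 109 in ago4-1. Both ago4-1 arrays lay below both wild-type arrays for each of these genes, as they did for 29.2% of all tested probe sets. Their log2 differences were -0.29 (limma adjusted p = 0.389) and -0.78 (limma adjusted p = 0.215), so 0 of the 3 tested genes of this list, SE included, passed in either direction, with a median of -0.29 beside -0.04 over all tested probe sets. The share passing over all tested probe sets was 4.06%. Without adjustment 1 of the 3, TGH, lay under 0.05, beside 20.4% of all. The difference of TGH was -0.38 without ago4-1 replicate 1 and -1.18 without ago4-1 replicate 2.

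The MAC3A and MAC3B genes encode closely related ubiquitin ligases of a splicing complex that also aids microRNA production. MAC3A was at 781 and 724 in wild type against 710 and 638 in ago4-1, and MAC3B was at 1350 and 1304 in wild type against 961 and 1138 in ago4-1. Both were lower on both ago4-1 arrays, with log2 differences of -0.16 and -0.34, and neither passed (limma adjusted p = 0.624 and 0.249). Among all tested probe sets 4.06% passed. The groups did not overlap, with ago4-1 the lower, for 29.2% of all tested probe sets.

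Of 32 targets of microRNAs and trans-acting small interfering RNAs, 3 had a probe set of their own, and ARF2, ARF3 and ARF4 were not among them. SNZ, a floral repressor cut back by miR172, gave 293 and 214.9 in wild type against 131.9 and 139.2 in ago4-1. Its log2 difference was -0.82 (SE 0.23, limma adjusted p = 0.0854). SNZ was lower in ago4-1 with no overlap between the genotypes, as were 29.2% of all tested probe sets. SMZ, its close relative and also a miR172 target, gave 44.4 and 44.2 in wild type against 47.7 and 31.2 in ago4-1. SMZ fell just below the low-signal filter, with a log2 difference of -0.14 (limma adjusted p = 0.897 with no filter). PHV, a leaf polarity gene under miR166, overlapped between genotypes, at 459.5 and 309.2 in wild type against 408 and 447 in ago4-1 (log2 difference 0.17, limma adjusted p = 0.697). Of these targets 0 of the 2 tested passed in limma, beside 4.06% of all tested probe sets. Without adjustment 1, SNZ, lay under 0.05, beside 20.4% of all.

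**Figure D3:**
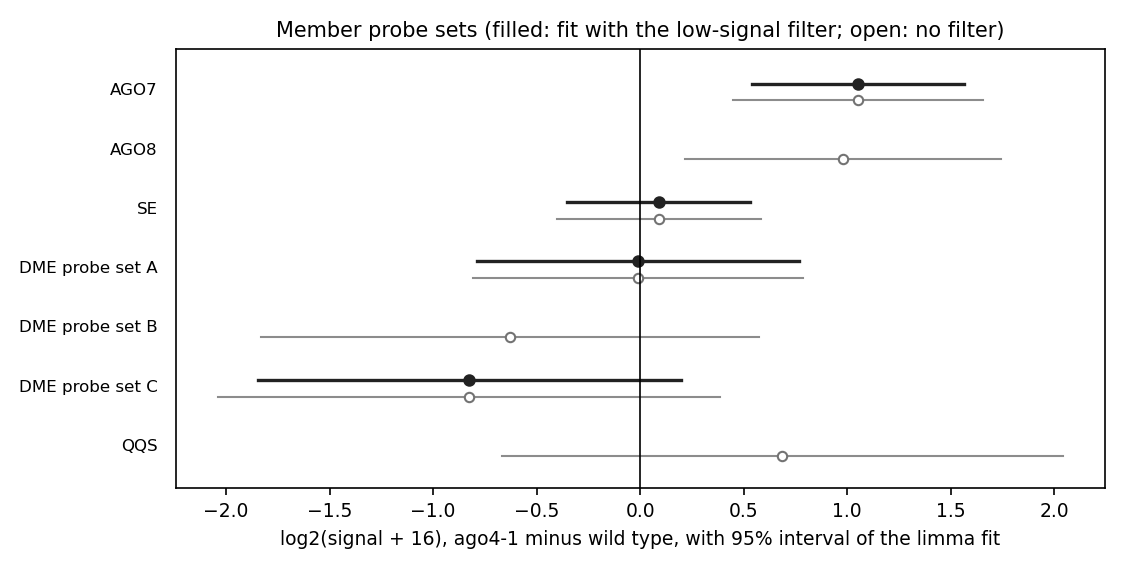
Differences in log2(signal + 16), ago4-1 minus wild type, with 95% intervals of the limma fit for the 7 probe sets of AGO7, AGO8, SE, DME and QQS. Filled points are from the fit past the low-signal filter and open points from the fit over all probe sets. The intervals of AGO7 (0.54 to 1.56) and AGO8 (0.22 to 1.74) lie above 0 and the other 5 span 0.

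The 3 probe sets of DME did not give the same picture. The RefSeq gene table lists AT5G04570 and AT5G04580 as other names of DME, beside its own locus AT5G04560. Which stretch of the transcript each probe set reads was not looked up here. They are called A, B and C below, in the order of their identifiers.

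Probe set C of DME, the one with the highest mean, gave 74.2 and 143 in wild type against 30.4 and 82.8 in ago4-1. The lowest value was on an ago4-1 array and the highest on a wild-type array, but the other pair crossed, so the genotypes overlapped. Its log2 difference was -0.82 (SE 0.45, 95% interval -1.85 to 0.20, limma adjusted p = 0.345). Dropping ago4-1 replicate 2 gave -1.37, and dropping ago4-1 replicate 1 gave -0.28.

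Probe set A of DME hardly moved, at 61.6 and 60.3 in wild type against 60.0 and 60.9 in ago4-1. Its highest signal was 1.03 times its lowest, and only 0.0502% of the tested probe sets had a smaller ratio. The log2 difference was -0.01, with a 95% interval from -0.79 to 0.77 (limma adjusted p = 0.992). That interval is wider than the spread of the 4 signals because limma draws the variance of each probe set toward that of others of like signal.

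Probe set B of DME was near the low end of the scale on 3 arrays, at 5.04 on wild type replicate 2 and at 3.41 and 8.19 in ago4-1. Wild type replicate 1 stood apart at 37.2. It fell below the filter, and over all probe sets its log2 difference was -0.63 (95% interval -1.83 to 0.58, limma adjusted p = 0.598). Without wild type replicate 1 the difference was 0.04.

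Of the 6 genes of DNA demethylation on the list, ZDP was the other one measured. ZDP, a DNA phosphatase that tidies the gap left by demethylation, gave 320.5 and 310.8 in wild type against 282.6 and 308.9 in ago4-1. Its log2 difference was -0.09 (limma adjusted p = 0.815). In limma 0 of the 2 tested genes of the list passed, beside 4.06% of all tested probe sets. Without adjustment 0 lay under 0.05, beside 20.4% of all. The demethylase ROS1, whose transcript is known to drop in mutants of RNA-directed DNA methylation, is not analysed here.

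QQS gave 7.18 and 3.6 in wild type against 44.2 and 3.5 in ago4-1. Only ago4-1 replicate 1 stood above 10, and ago4-1 replicate 2 was the lowest of the 4 arrays. The means were 5.39 ± 2.53 and 23.9 ± 28.8 (SD, n = 2 each), and the spread within ago4-1 was larger than the difference between the genotypes. QQS fell below the low-signal filter. Over all probe sets its log2 difference was 0.69 (SE 0.56, 95% interval -0.67 to 2.04, limma adjusted p = 0.61), and without ago4-1 replicate 1 it was -0.13.

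A lone array standing high was found at similar rates on each array. Among probe sets under 10 on the other 3 arrays, 79 of 1268 (6.23%) were over 30 on ago4-1 replicate 1, the pattern of QQS. For ago4-1 replicate 2 the share was 6.3%, for wild type replicate 1, the pattern of DME probe set B, it was 6.04%, and for wild type replicate 2 it was 6.33%. Of the 20 tested named probe sets nearest to QQS, from AT3G29410 to AT3G42725, 1 passed, beside 4.06% of all tested, and 7 lay under 0.05 without adjustment, beside 20.4% of all. The gene that passed was AT3G29410, the farthest of them from QQS on its side in gene order. It gave 48.5 and 31.3 in wild type against 150 and 136 in ago4-1. Its log2 difference was 1.53 (limma adjusted p = 0.0368), a call lost with no low-signal filter (0.12).

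QQS was the only one of 7 genes on the list of methylation-controlled genes with a probe set of its own, and of 15 genes of starch metabolism only DPE1 had one. DPE1 encodes the plastid enzyme that works on maltotriose from starch breakdown. It gave 531 and 463 in wild type against 319 and 394 in ago4-1, with both ago4-1 arrays the lower (log2 difference -0.47, SE 0.18, limma adjusted p = 0.201). That order was found in 29.2% of all tested probe sets.

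**Figure D4:**
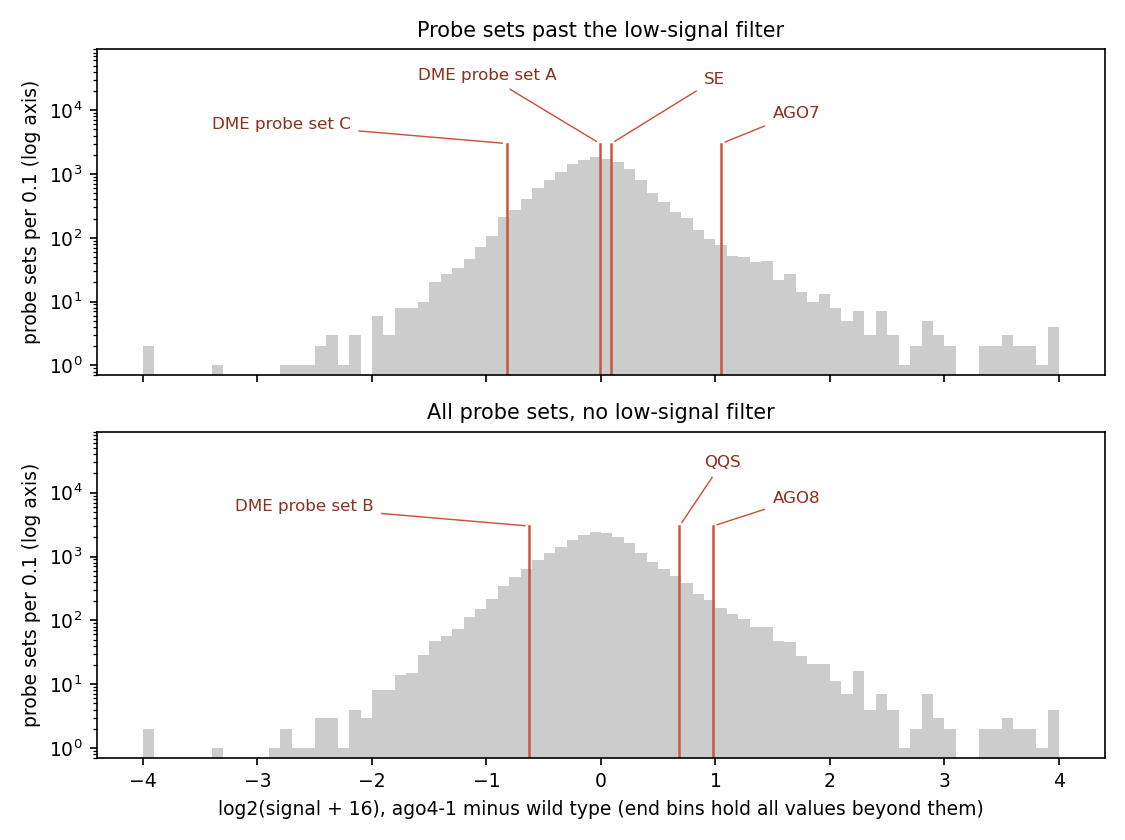
Number of probe sets, on a log axis, by their difference in log2(signal + 16), ago4-1 minus wild type, in bins of 0.1, for those past the low-signal filter (upper panel) and for all (lower panel). Lines mark the members: AGO7 at 1.05 had 2.32% of the filtered probe sets above it, AGO8 at 0.98 had 3.65% of all probe sets above it, and SE at 0.09 and DME probe set A at -0.01 lie in the middle.

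The core list of RNA-directed DNA methylation, the pathway in which AGO4 acts, had 0 of 20 genes with a probe set of its own, and the list of maintenance methylation and histone marks had 0 of 10. A further 12 genes of the pathway were found by symbol: subunits of the RNA polymerases IV and V, some of them shared with polymerase II, the CLASSY chromatin remodellers that guide polymerase IV, and the genes RDM16 and NERD. Of these, 9 passed the filter and 0 passed the limma test in either direction, where 4.06% of all tested did. Without adjustment 1, NRPB6B, lay under 0.05, beside 20.4% of all. Their differences ran from -0.76 to 0.48 with a median of 0.11, beside -0.04 over all tested probe sets, and 6 were above 0.

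Of this group the 4 with the smallest p were NRPB6B, NRPB9A, NERD and RDM16. NRPB6B, a subunit shared by polymerases II and V, gave 1556 and 2067 in wild type against 1122 and 1329 in ago4-1 (log2 difference -0.55, limma adjusted p = 0.126). NRPB9A, another shared subunit, gave 140.9 and 202.4 in wild type against 252 and 233 in ago4-1 (log2 difference 0.48, limma adjusted p = 0.28). NERD, a plant homeodomain and GW-repeat protein that binds AGO2, gave 117.4 and 115.5 in wild type against 40.5 and 91.9 in ago4-1 (log2 difference -0.76, limma adjusted p = 0.28). RDM16, a splicing factor that affects DNA methylation, gave 219.9 and 236.8 in wild type against 149.6 and 188.9 in ago4-1 (log2 difference -0.41, limma adjusted p = 0.325). The difference of NERD was -0.30 without ago4-1 replicate 1 and -1.23 without ago4-1 replicate 2. The groups did not overlap for any of these 4, with 1 higher and 3 lower in ago4-1. Over all tested probe sets 23.2% were higher and 29.2% lower without overlap, and these 4 were picked for their small p.

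**Figure D5:**
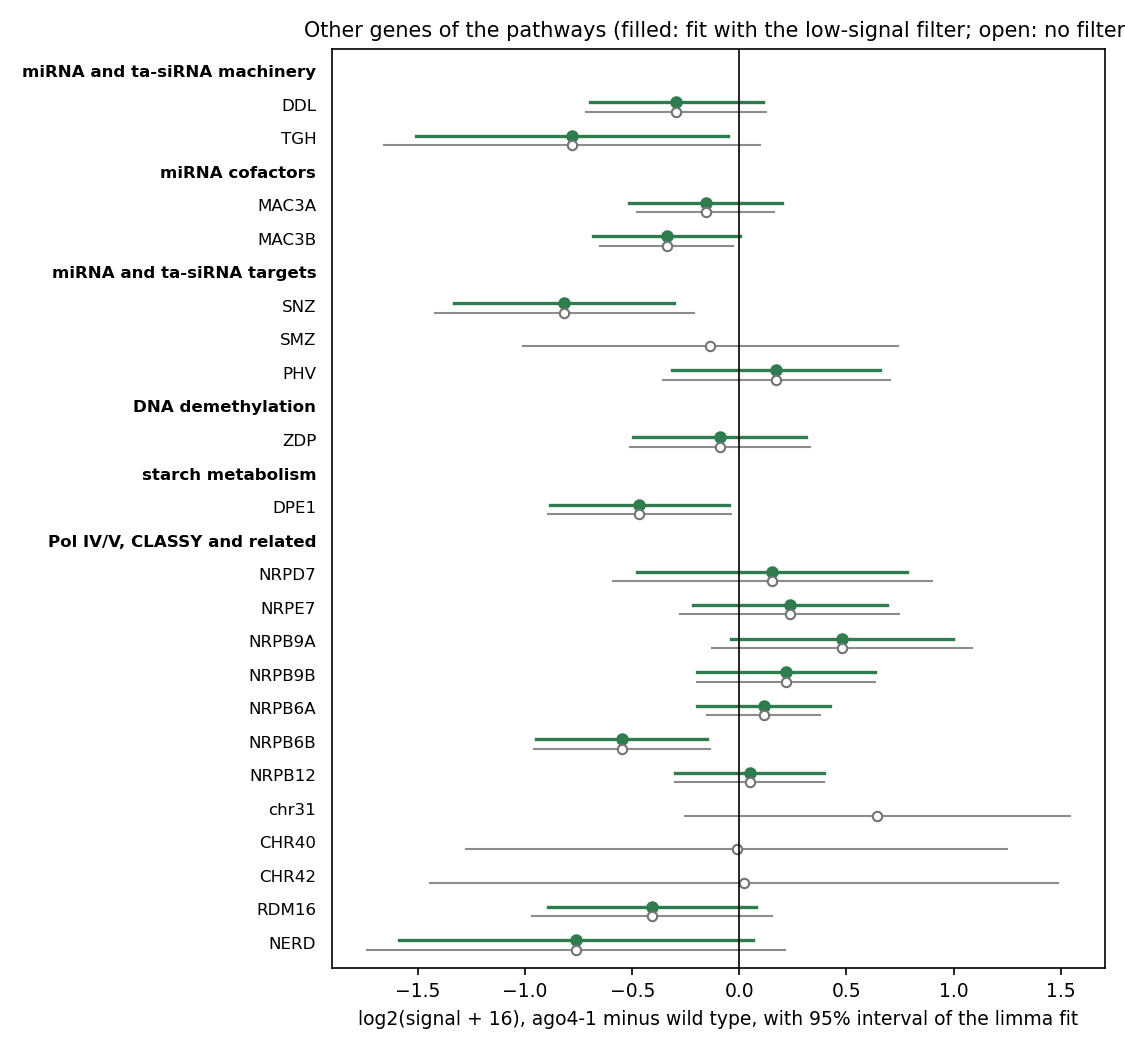
Differences in log2(signal + 16), ago4-1 minus wild type, with 95% intervals of the limma fit, for the other measured genes of the small RNA, demethylation, starch and polymerase IV and V lists. Filled points are from the fit past the low-signal filter and open points from the fit over all probe sets. Most intervals span 0, those of SNZ, TGH, DPE1 and NRPB6B lie below 0 in the filtered fit, and none of the genes shown passed after adjustment.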

How the data were processed

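Per the labels' protocols, total RNA of whole plants was extracted with Trizol, labelled with biotin and hybridised to Affymetrix arrays. The deposited values are intensity values, 1 linear signal per probe set and array, and the submitters' processing notes name GCOS as the software. The sources used here give neither its version nor its settings. The trimmed mean was 500.1 on every array (2% trimmed at each end), so the values were taken as scaled by the authors and were not scaled again.

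Of 22810 probe sets 64 controls were left out. Genes were named through the platform's annotation, in which 13513 probe sets had 1 gene, 503 several and 8730 were not listed. Of the first, 13436 matched RefSeq's table (TAIR10.1, used for names and gene order). Signals were taken as log2(signal + 16), and the 15922 probe sets past the 30th percentile of the mean log2 value were fitted in limma 3.58.1 (R 4.3.3; linear model, empirical Bayes moderation with a variance trend). Two-sided p-values were adjusted by Benjamini and Hochberg's method over all of them, at a threshold of 0.05. The same fit over all 22746 gave a test for members below the filter. The fits were tested on simulated data.

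The members, and the lists of pathway genes and tissue markers, were chosen with earlier results of these data known. The marker genes of pollen come from those results and support nothing on their own. The added lists, of polymerase IV and V genes and of microRNA processing cofactors, and the sperm cell marker were picked by symbol after the data had been obtained. Of a gene's probe sets the one with the highest mean was used in a list. Named were all members, every gene of a list with 4 or fewer measured genes and otherwise the 4 with the smallest p, and the 3 genes closest in profile to a member whose genotypes did not overlap. Neighbouring genes that passed the test and the limits of the low-signal patterns were chosen after values were seen.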

Additional observations from a re-analysis of the deposited data

How the results depend on the processing

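The log2 difference of AGO7 kept its direction in all 13 alternatives tried, and its call was lost in the 5 given above: at 1.05 with no low-signal filter or no variance trend, and within the range of 0.88 to 1.22 with an array left out. SE, at 0.02 to 0.16, and DME probe set C were called in none of theirs. AGO8 and QQS, below the filter, could be tested only with no filter, alone or together with another change, combinations chosen after seeing the data. AGO8 was at 2.11 with a pseudocount of 1, at 0.38 with 64 and from 0.93 to 1.03 with an array left out (limma adjusted p from 0.218 to 0.533 over all these). QQS ran from -0.13 to 1.499. The count of probe sets passing was 647, against 140 in the fit that dropped the low-signal filter and 93 in the fit that dropped the variance trend. With an array left out the count ran from 280, lacking ago4-1 replicate 1, to 1046, lacking ago4-1 replicate 2. With the replicate number as a block 2409 passed, and the limma adjusted p of AGO7 was 0.000391. The standard error of AGO7 was 0.25 there against 0.23 in the main fit, so the smaller p does not reflect a smaller spread. The block leaves fewer than the main fit's 2 residual degrees of freedom, so its p-values lean more on variance pooled over probe sets. SNZ and NRPB6B, not called otherwise, passed with the block (0.00713 and 0.00527). Deviations of same-numbered arrays correlated at 0.166 across probe sets, but nothing in the labels pairs them. Signs turned, all uncalled, for DME probe set A (0.041 with centred arrays, and from -0.022 to 0.0031 with an array left out) and for PHV (from -0.10 to 0.45 with an array left out). The sign also turned for DME probe set B, to 0.042 without wild type replicate 1, and for QQS, to -0.13 without ago4-1 replicate 1. The cause of these changes was not tested. Where a group keeps a lone array, its spread is taken from the other group. The number of arrays limits the precision.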
